A study of Mus musculus with 7 samples.

Results

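The genes for the cartilage collagens of types II, IX, XI and XXVII were examined in mouse oligodendroglia with a wild-type or a raised level of the transcription factor Sox9. They are 7 chains, taken by gene name as a family, with earlier results of these data known: Col2a1, Col9a1, Col9a2, Col9a3, Col11a1, Col11a2 and Col27a1. The count files list 49315 genes, of which 16616 had enough counts to be tested, and all 7 chains were among those tested. Their lowest count in any library was 92, for Col9a1 in control library 1.

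The study sequenced RNA from brain-derived mouse oligodendroglia of 2 genotypes. Control cells (Sox9-wt) gave 3 libraries and Sox9-tg cells, which overexpress Sox9, gave 4. By the title of the series they are NG2 glia of early postnatal life, the dividing progenitors that give rise to oligodendrocytes, and the question is which genes Sox9 controls in them. The transgene's promoter or driver, the animals' strain and age in days, and how the cells were isolated or grown were not given in the sources used here. Labels call the libraries biological replicates without saying whether these were separate animals or cultures, so the p-values measure only the spread between these samples, which may be technical.

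Libraries held between 15768472 and 30507326 counts. Sox9 itself, given first as a check of the labels, was at 239, 353 and 293 counts per 1e6 library counts (CPM) in control libraries 1 to 3 and at 2207, 2741, 3597 and 3115 CPM in Sox9-tg libraries 1 to 4. The lowest Sox9-tg library was far above the highest control library, so the labels and the Sox9 level match. Both libraries numbered 2 had the highest summed level of microglial markers in their group, 576 CPM in control 2 against 75.6 and 166 CPM in the other controls, and 236 CPM in Sox9-tg 2 against 35.5 to 76.8 CPM. Endothelial markers had the same pattern, with control 2 at 146 CPM and Sox9-tg 2 at 34.8 CPM against 7.76 to 14.6 CPM in the other 5 libraries. Results for the chains are therefore also given without this pair of libraries.

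Collagens are built from chains that wind into triple helices. Type II collagen, a homotrimer of the Col2a1 chain, makes up the bulk of the cartilage fibril. Type XI collagen, with chains from Col11a1, Col11a2 and Col2a1, lies within that fibril and limits its width, and type IX collagen, a heterotrimer of the Col9a1, Col9a2 and Col9a3 chains, decorates its surface. Type XXVII collagen, a homotrimer of Col27a1, is a separate fibril-forming collagen of cartilage. In chondrocytes SOX9 is the known direct activator of Col2a1 and of several of the other genes, acting with SOX5 and SOX6 at enhancers within and around them. SOX proteins bind short words such as ACAAAG. In brain glia these genes are less studied than in cartilage.

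The stretch just upstream of the start is shown for 4 chains, so that 2 with large differences between the groups (Col9a1, Col11a2) can be set beside the 2 with the smallest (Col11a1, Col27a1). Each sequence is the 250 bases before a RefSeq start on the plus strand of GRCm38.p6, and capitals mark a match, on either strand, to the word ACAAAG, the word ACAATG, the word TCAAAG or the word TCAATG, none of which overlaps another here.
Col9a1 (chr1:24177360-24177609): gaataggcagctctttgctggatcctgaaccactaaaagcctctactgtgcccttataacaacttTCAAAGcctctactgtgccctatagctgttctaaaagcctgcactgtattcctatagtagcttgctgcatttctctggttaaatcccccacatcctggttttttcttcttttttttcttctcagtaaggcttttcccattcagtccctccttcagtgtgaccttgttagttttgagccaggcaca
Col11a2 (chr17:34038888-34039137): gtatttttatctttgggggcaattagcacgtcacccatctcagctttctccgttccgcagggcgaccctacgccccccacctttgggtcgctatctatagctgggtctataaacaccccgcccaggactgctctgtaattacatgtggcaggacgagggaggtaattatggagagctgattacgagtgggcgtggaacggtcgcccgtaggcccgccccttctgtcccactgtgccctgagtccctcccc
Col11a1 (chr3:114030290-114030539): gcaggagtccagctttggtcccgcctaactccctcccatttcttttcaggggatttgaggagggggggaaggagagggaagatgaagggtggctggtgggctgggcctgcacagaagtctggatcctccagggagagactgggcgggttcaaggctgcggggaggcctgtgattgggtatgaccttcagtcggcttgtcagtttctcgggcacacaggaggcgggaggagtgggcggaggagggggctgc
Col27a1 (chr4:63215162-63215411): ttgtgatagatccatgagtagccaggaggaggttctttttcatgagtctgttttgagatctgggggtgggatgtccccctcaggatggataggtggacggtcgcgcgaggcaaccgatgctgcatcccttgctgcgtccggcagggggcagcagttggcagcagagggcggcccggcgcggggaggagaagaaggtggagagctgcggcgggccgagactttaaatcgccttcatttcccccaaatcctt
Col9a1 held 1 match, TCAAAG on the plus strand, 185 bases upstream of the start. The stretches of the other 3 chains held 0 matches. Among 32851 RefSeq promoters of the same length, 39.4% held at least 1 match, so a single match in a promoter is common. GC content was 43.6% for Col9a1, 57.6% for Col11a2, 62.4% for Col11a1 and 59.6% for Col27a1, against a median of 52.4% over all promoters. The Col27a1 start used by RefSeq lies inside the longer gene annotated by GENCODE. The upstream stretch of Col9a2 held 1 match, TCAAAG on the minus strand, 178 bases upstream of its start. A second RefSeq start of Col9a1 (stretch chr1:24194953-24195202) held 0 matches. These 2 stretches overlap annotated exons and are not printed, and Col2a1 and Col9a3 are named only.

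Col2a1 (ENSMUSG00000022483, GRCm38 chromosome 15, 97975602 to 98004695, minus strand), the chain of the main cartilage fibril, was at 21.6, 26.9 and 20.4 CPM in control libraries 1 to 3. It was at 632, 1193, 612 and 597 CPM in Sox9-tg libraries 1 to 4. Sox9-tg 1, 3 and 4 lay close together and Sox9-tg 2 stood above them, while the groups did not come near each other: the lowest Sox9-tg library was 22.2 times the highest control library. The group means were 23.0 ± 3.48 CPM (SD, n = 3) and 758 ± 290 CPM (SD, n = 4), a 33.0-fold difference. Col2a1 rose by 5.04 ± 0.33 (SE) on the log2 scale, with an adjusted p of 0.000119. This and every other adjusted p of a gene comes, unless another tool is named, from the quasi-likelihood test of edgeR, adjusted by Benjamini and Hochberg's method over all genes tested. This was the 15th largest log2 fold change among the 16616 genes.

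The 3 chains of type IX collagen rose by unequal amounts. Col9a1 (ENSMUSG00000026147, chromosome 1, 24177610 to 24252684, plus strand), the chain that in cartilage carries the large domain projecting from the fibril, was at 5.35, 8.48 and 6.92 CPM in control libraries, and at 127, 387, 192 and 202 CPM in Sox9-tg libraries. Its means were 6.92 ± 1.57 and 227 ± 112 CPM, a 32.8-fold difference (log2 fold change 5.02 ± 0.42 SE, adjusted p = 0.000276). Col9a1 and Col2a1 had the largest fold differences of means. Col11a2 was next, with a log2 fold change of 4.60 ± 0.54 (SE), and its ratio to Col2a1, given below, overlapped between groups.

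Col9a2 (ENSMUSG00000028626, chromosome 4, 121039385 to 121055322, plus strand), the second chain of the type IX trimer, was at 12.4, 22.7 and 20.1 CPM in control libraries, and at 136, 600.3, 254 and 239 CPM in Sox9-tg libraries. Sox9-tg 2 was 4.42 times Sox9-tg 1, the widest spread of the 7 chains within the Sox9-tg group. The means of 18.4 ± 5.38 and 307 ± 202 CPM differed 16.7-fold, with a log2 fold change of 4.05 ± 0.53 (SE) and an adjusted p of 0.00181.

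Col9a3 (ENSMUSG00000027570, chromosome 2, 180597790 to 180622189, plus strand), the third chain, was at 66.6, 98.1 and 93.5 CPM in control cells. It was at 597, 1288, 1010.3 and 953 CPM in Sox9-tg libraries. The means, 86.1 ± 17.0 and 962 ± 284 CPM, differed 11.2-fold (log2 fold change 3.48 ± 0.29 SE, adjusted p = 0.000276). Of the 3 chains, Col9a3 had the smallest fold difference of means, but its order against Col9a2 is not resolved. Without Sox9-tg 2 the log2 fold changes were 3.52 for Col9a2 and 3.32 for Col9a3, and the ratio of these 2 chains, given below, overlapped between groups. Col9a3 shares 2 of its exons with Tcfl5, a gene on the opposite strand, and strand use in counting was not given in the sources used here, but Tcfl5 held only 26 to 87 counts per library and did not pass the test (log2 fold change 0.80, adjusted p = 0.122).

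The 2 genes of type XI collagen also differed from each other. Col11a1 (ENSMUSG00000027966, chromosome 3, 114030540 to 114220718, plus strand), which codes for the alpha-1 chain, was at 39.8, 32.5 and 33.6 CPM in control libraries, and at 153, 349, 181 and 192 CPM in Sox9-tg libraries. Control libraries agreed closely, with a coefficient of variation of 11.02%, and every Sox9-tg library was at least 3.86 times the highest of them. The means of 35.3 ± 3.89 and 219 ± 88.2 CPM differed 6.20-fold (log2 fold change 2.63 ± 0.29 SE, adjusted p = 0.000937).

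Col11a2 (ENSMUSG00000024330, chromosome 17, 34039437 to 34066685, plus strand), which codes for the alpha-2 chain, was at 6.57, 19.1 and 16.8 CPM in control libraries, and at 174, 610, 289 and 309 CPM in Sox9-tg libraries. Control 1 was well below the other controls, and Sox9-tg 2 was well above the other Sox9-tg libraries. The means of 14.2 ± 6.67 and 346 ± 186 CPM differed 24.4-fold, with a log2 fold change of 4.60 ± 0.54 (SE) and an adjusted p of 0.00118. The spread within each group was wide, but the lowest Sox9-tg library was 9.11 times the highest control library.

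Col27a1 (ENSMUSG00000045672, chromosome 4, 63214004 to 63334991, plus strand), the fibril-forming collagen outside the II/IX/XI fibril, was at 7.50, 23.8 and 10.7 CPM in control libraries, and at 57.2, 125, 64.7 and 56.8 CPM in Sox9-tg libraries. Control 2 was 3.17 times control 1, the widest spread of any chain among controls, yet the lowest Sox9-tg library was still 2.39 times control 2. The means of 14.01 ± 8.63 and 76.1 ± 33.1 CPM differed 5.43-fold (log2 fold change 2.43 ± 0.45 SE, adjusted p = 0.00848). Without control 2 the log2 fold change was 3.05 (adjusted p = 0.00278), and without control 3 the adjusted p was 0.0467.

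**Figure D1:**
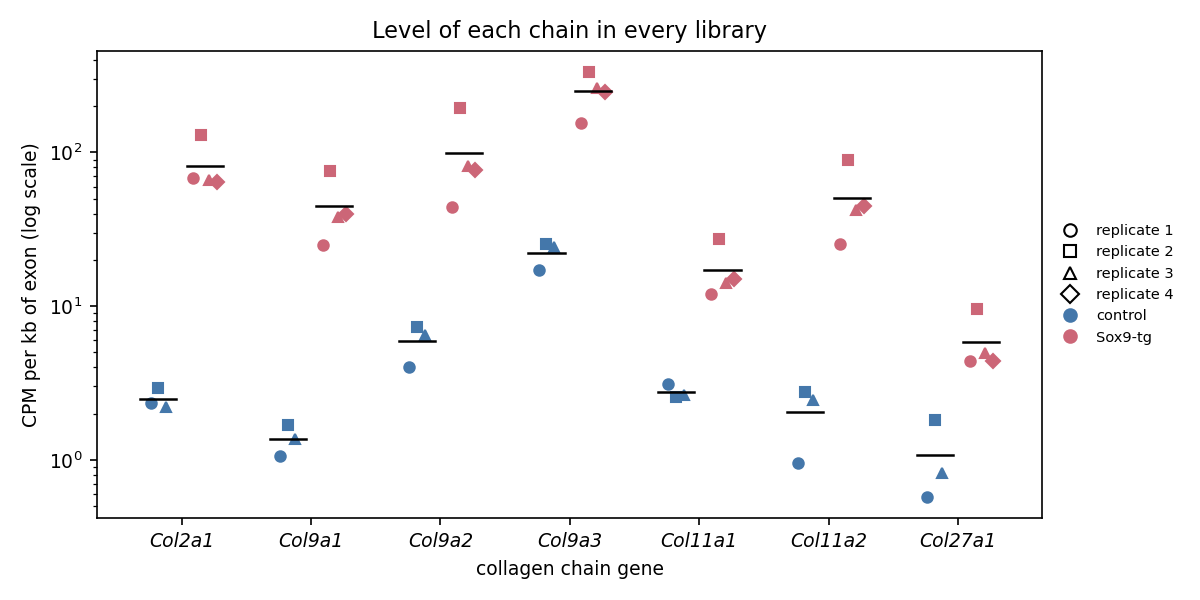
Level of each of the 7 chains, in CPM per kilobase of exon on a log axis, with 1 point per library and a line at each group mean. For every chain the 4 Sox9-tg libraries sit above the 3 control libraries, with Sox9-tg 2 the highest of them.

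All 7 chains passed the threshold of 0.05 as higher in Sox9-tg, where 7.69% of all genes tested were called higher and 5.86% lower. In all 7, every Sox9-tg library was above every control library, an order found in 13.1% of genes tested. The chains' log2 fold changes held ranks between 15 (Col2a1) and 215 (Col27a1) among 16616 genes, and the median over all genes tested was -0.0119. Each of the 7 was also called higher under each of the 15 alternative settings tried. Without both libraries numbered 2, the log2 fold changes ran from 2.28 (Col11a1) to 4.88 (Col2a1), with adjusted p between 7.1e-05 and 0.00261. In a bulk sample, more cells that express a chain and more RNA of it per cell cannot be told apart.

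**Figure D2:**
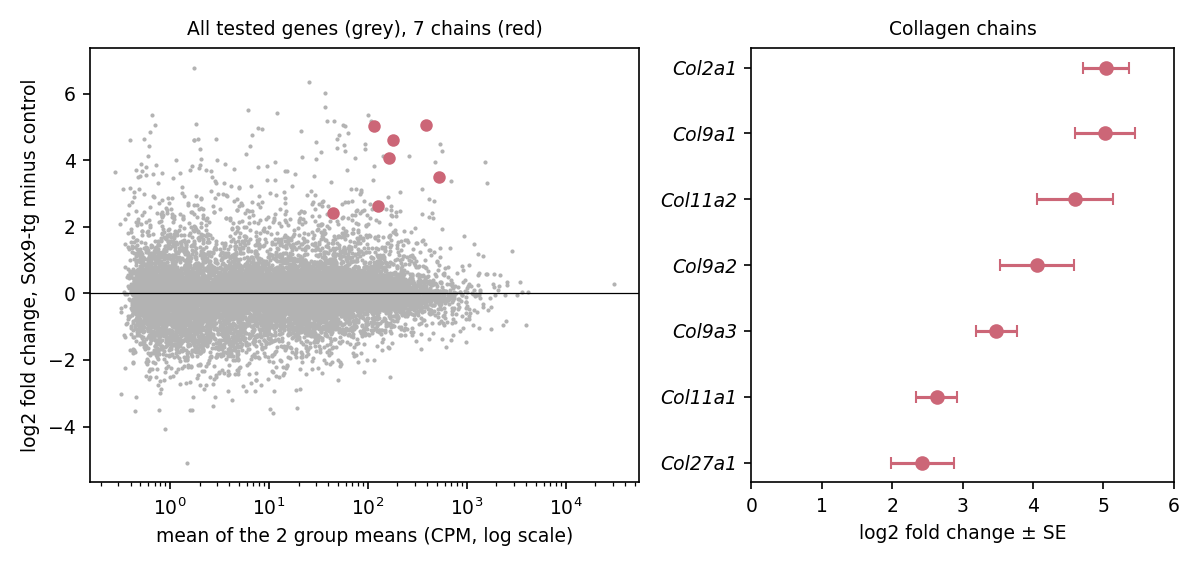
Log2 fold change (Sox9-tg minus control) against mean CPM for all genes tested (grey) with the 7 chains in red, and the chains alone with their SE. All 7 lie above 0, from 2.43 for Col27a1 to 5.04 for Col2a1.

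Sox9-tg 2 was the highest Sox9-tg library for 7 of 7 chains, Sox9-tg 1 the lowest for 5 and Sox9-tg 4 for 2. Control 2 was the highest control for 6 chains, and control 1 was the lowest for 5. The place of Sox9-tg 2 was shared by all 7 chains, while the order of the other libraries differed between chains. The 7 chains together summed to 160, 232 and 202 CPM across control libraries and to 1875, 4552, 2604 and 2549 CPM in Sox9-tg libraries. Sox9 did not have that order within the Sox9-tg group: it was highest in Sox9-tg 3 (3597 CPM), and Sox9-tg 2 had the second lowest Sox9 level (2741 CPM) with the highest collagen sum.

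Levels per kilobase of annotated exon, over all transcripts of a gene, allow the chains to be set against each other. Levels, shares and order depend on this choice of length. In control, Col9a3 led with 22.3 CPM per kilobase, followed by Col9a2 at 5.95 and Col11a1 at 2.77. By this length Col9a3 was above Col9a2, and Col9a2 above Col11a1, in 3 of 3 libraries. By coding length Col11a1 lies above Col9a2 in control 1. Below them came Col2a1 at 2.49, Col11a2 at 2.06, Col9a1 at 1.36 and Col27a1 at 1.08 CPM per kilobase, and from Col11a1 downward neighbours in the order changed places in 1 of 3 libraries. The order of the lower 5 chains in control cells is therefore not resolved.

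In Sox9-tg libraries the order was Col9a3 (249.6 CPM per kilobase), Col9a2 (99.3), Col2a1 (82.1), Col11a2 (50.3), Col9a1 (44.7), Col11a1 (17.2) and Col27a1 (5.84). Each chain was above the next in 4 of 4 libraries, except that Col9a2 was above Col2a1 in 3 of 4. Col11a2 and Col9a1 were close, with a log2 ratio between 0.02 and 0.22 across libraries. This order holds for exon length, of which 4461 of 9243 bases are coding in Col2a1 and 5208 of 6874 in Col11a2. By coding length Col9a1 lies above Col11a2, and Col2a1 above Col9a2, on average. Col2a1, Col11a2 and Col9a1 thus stood above Col11a1 in Sox9-tg cells and below it on average in control cells.

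As shares of the per-kilobase sum of the 7 chains, Col9a3 held 58.8% ± 1.56 in control and 46.7% ± 5.63 in Sox9-tg libraries. Col2a1 held 6.67% ± 1.25 and 15.4% ± 3.51, with 5.49% to 7.97% in control and 13.0% to 20.5% in Sox9-tg. Col9a1 held 3.58% ± 0.183 and 7.97% ± 0.673. Col11a1 went the other way, from 7.64% ± 2.63 to 3.16% ± 0.341, and Col27a1 from 2.70% ± 1.21 to 1.07% ± 0.189, although the level of both was higher in Sox9-tg. Col11a2 held 5.19% ± 1.67 and 8.82% ± 1.19, and Col9a2 held 15.4% ± 1.56 and 16.9% ± 4.02. Col9a2 was the only chain of the 7 whose share overlapped between groups.

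**Figure D3:**
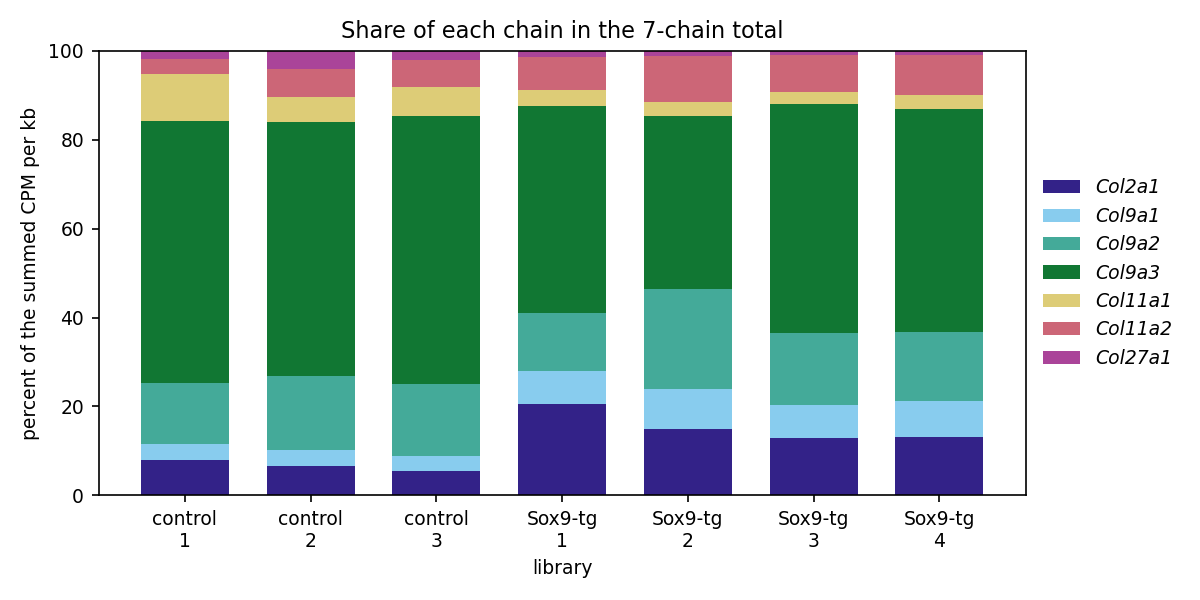
Share of each chain in the summed level per kilobase of the 7 chains, in percent, with 1 bar per library. Col9a3 is the largest share in all 7 libraries, and Col2a1 and Col9a1 take larger shares in Sox9-tg than in control libraries.

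Ratios of 2 chains within a library do not depend on how libraries are scaled, and 8 were tested with a two-sided exact permutation test over the 35 ways to assign 7 libraries to the groups. The smallest p this design allows is 0.0286, or 0.0457 after Benjamini-Hochberg adjustment here, and 5 ratios reached it. The share of all gene pairs whose ratio lies apart in this way was not worked out. Each difference largely restates the gap between the log2 fold changes of its 2 chains. Within type IX, the Col9a1 to Col9a2 ratio was 0.265, 0.228 and 0.210 in control and 0.570, 0.393, 0.461 and 0.514 in Sox9-tg, a difference of 1.04 in log2. The Col9a1 to Col9a3 ratio was 0.0613, 0.0658 and 0.0564 in control and 0.161, 0.228, 0.144 and 0.161 in Sox9-tg, a difference of 1.49 in log2. Col9a1 thus moved closer to its partner chains, while the Col9a2 to Col9a3 ratio overlapped between groups (difference 0.44, exact permutation p = 0.143, adjusted 0.190). That Col9a2 to Col9a3 difference was 0.21 without Sox9-tg 2 and 0.28 without both libraries numbered 2.

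Within type XI, the Col11a1 to Col11a2 ratio was 3.25, 0.919 and 1.08 in control and 0.476, 0.309, 0.338 and 0.336 in Sox9-tg, a difference of -2.04 in log2. Control 1 set a good deal of that difference, which was -1.47 without it. The Col2a1 to Col11a1 ratio was 0.750, 1.14 and 0.837 in control and 5.67, 4.71, 4.66 and 4.28 in Sox9-tg, a difference of 2.42. The Col2a1 to Col27a1 ratio was 4.05, 1.60 and 2.68 in control and 15.5, 13.4, 13.3 and 14.8 in Sox9-tg, a difference of 2.46.

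The ratios of Col2a1 to 2 other chains overlapped between groups. The Col2a1 to Col9a1 ratio was 2.21, 1.74 and 1.61 in control and 2.73, 1.69, 1.75 and 1.62 in Sox9-tg (difference 0.05, exact permutation p = 0.829, adjusted 0.829). The Col2a1 to Col11a2 ratio differed by 0.38 in log2 (exact permutation p = 0.429, adjusted 0.490). Control 1 made that overlap: without it the Col2a1 to Col11a2 difference was 0.83 (adjusted 0.0889 in an exact permutation test), and without control 3 it was 0.11. Such p-values do not show that the ratios are equal.

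**Figure D4:**
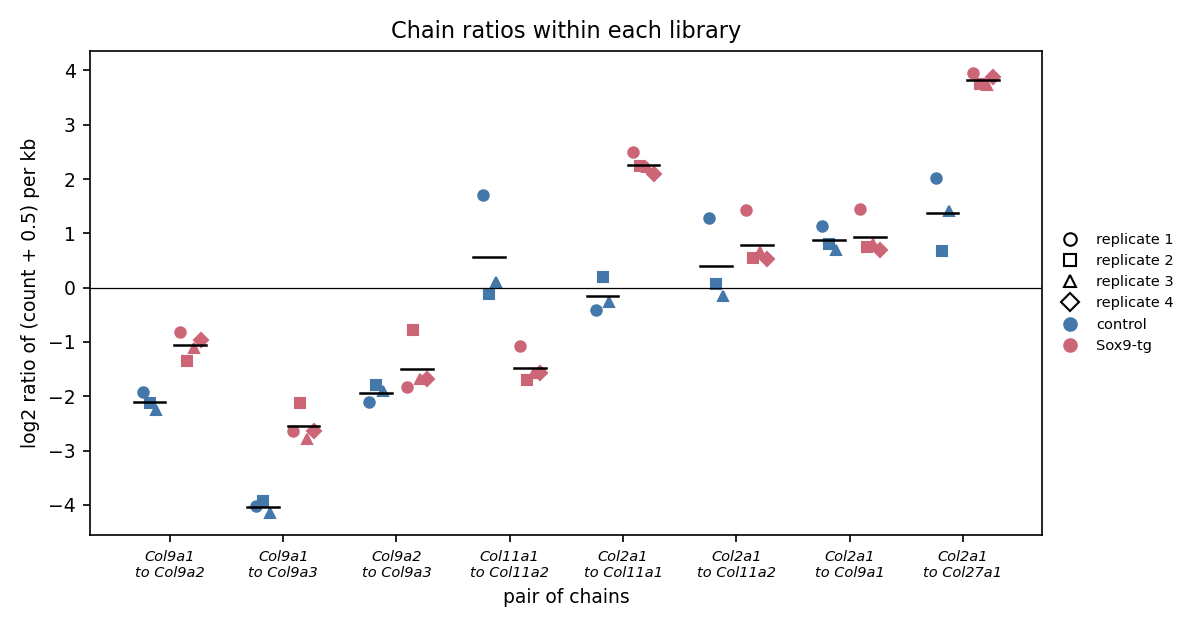
Log2 ratio of 2 chains per kilobase within each library, 1 point per library, for the 8 ratios tested. Control and Sox9-tg points are apart for 5 ratios and overlap for Col9a2 to Col9a3, Col2a1 to Col11a2 and Col2a1 to Col9a1.

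Markers of NG2 glia, the labelled cell type, were present in every library and rose with the collagens. All 10 markers were called higher in Sox9-tg (median log2 fold change 1.70), and without control 3 the calls of Olig1, Olig2 and Vcan were lost and 7 remained. Pdgfra, a growth factor receptor that defines these progenitors, was at 433 ± 22.6 CPM in control against 1432 ± 101 CPM in Sox9-tg libraries. The mean log2 CPM of the 10 markers was 6.62, 7.17 and 6.99 in control and 8.71, 9.35, 9.27 and 9.18 in Sox9-tg libraries. What part of the collagen differences goes with the level of these cells was not tested.

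Set against that marker mean within each library, 5 chains still lay apart between the groups. The share of all genes tested that lie apart on this scale was not worked out. The difference between groups in log2 level relative to the markers was 2.79 for Col2a1, 2.74 for Col9a1, 2.40 for Col11a2, 1.70 for Col9a2 and 1.25 for Col9a3, with ranges that did not overlap. For Col11a1 the difference was 0.36, with -2.14 to -1.30 in control and -1.77 to -0.90 in Sox9-tg libraries. For Col27a1 it was 0.33, with -3.71 to -2.60 and -3.35 to -2.38. Col11a1 and Col27a1 thus overlapped between groups on this scale, each through 1 control library. Without control 1 the Col11a1 difference was 0.61, and without control 2 the Col27a1 difference was 0.67, with no overlap in either case. With single libraries left out they ran from 0.19 to 0.61 for Col11a1 and from 0.12 to 0.67 for Col27a1. Relative to Pdgfra alone their differences were 0.84 and 0.80. The marker mean includes Neu4 and Gpr17, which had the largest log2 fold changes of the list, 4.75 and 3.96. The list's median was 1.70, and Pdgfra rose by 1.72. The small differences of Col11a1 and Col27a1 therefore depend on the markers chosen. A marker mean without Neu4 and Gpr17 was not tested.

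**Figure D5:**
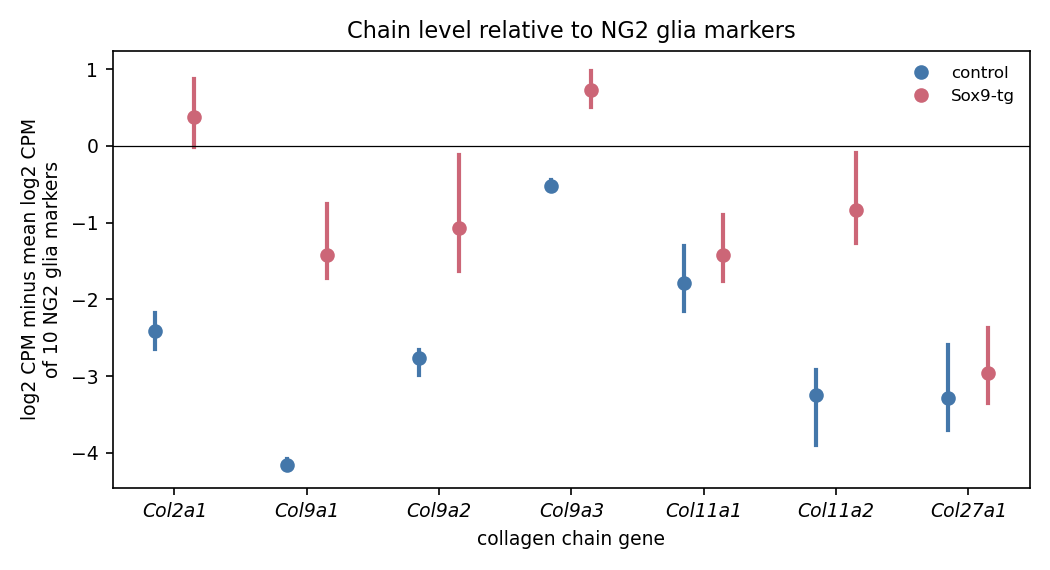
Log2 CPM of each chain minus the mean log2 CPM of 10 NG2 glia markers in the same library, with a point at each group mean and a line from the lowest to the highest library. Groups are apart for Col2a1, the 3 type IX chains and Col11a2 and overlap for Col11a1 and Col27a1.

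Markers of other cells that make collagen were also measured. Of 10 fibroblast markers 7 were tested and edgeR called 1, Lum, a small fibril-binding proteoglycan (0.119 ± 0.179 CPM in control against 3.36 ± 2.43 CPM in Sox9-tg), while the median log2 fold change of the list was -0.70. DESeq2, run on all genes and so also on markers with too few counts for edgeR, called the same number higher and 3 lower. By limma-voom 1 was higher and 0 lower. Summed, the fibroblast markers were at 20.4 to 89.6 CPM in control libraries, and at 16.4 to 58.1 CPM with Sox9-tg, with the libraries numbered 2 the highest of both groups. Col1a1, the main collagen chain of fibroblasts and bone, was at 5.83 ± 5.76 CPM in control against 1.48 ± 1.00 CPM in Sox9-tg (adjusted p = 0.143, and 0.0444 by DESeq2 for the Col1a1 log2 fold change). Pericyte markers summed to 131, 259 and 130 CPM in control libraries and to 101 to 130 CPM with Sox9-tg, most of it Notch3 (124 ± 32.3 and 93.5 ± 10.2 CPM), a receptor that other brain cells express too. Of 5 pericyte, 6 endothelial and 7 microglial markers tested, 0 were called in either direction by edgeR, DESeq2 or limma-voom with all libraries and no replicate block. Over all genes tested, edgeR called 7.69% higher and 5.86% lower, and at those shares lists this short would hold few calls. The median log2 fold changes were -1.46 (pericyte), -2.07 (endothelial) and -1.47 (microglial). Single libraries left out gave up to 1 pericyte marker called lower and 1 endothelial marker called higher, the latter also without both libraries numbered 2. At an unadjusted p under 0.05 in edgeR, 2 pericyte, 2 endothelial and 1 microglial marker were lower and 0 were higher.

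Of 7 chondrocyte markers outside the collagens, 2 had enough counts to test, and the list summed to 8.76 to 17.1 CPM in control against 95.3 to 214 CPM in Sox9-tg. Nearly all of the rise in that sum was Acan, the large cartilage proteoglycan (4.24 ± 1.63 CPM in control against 121 ± 57.1 CPM in Sox9-tg). Pth1r, a receptor of growth plate chondrocytes, was at 7.01 ± 2.91 and 6.99 ± 0.904 CPM (adjusted p = 0.993). Comp, Matn3, Col10a1 and Ihh had too few counts to test, at most 20 in any library, and Cytl1 was at 0 in all 7 libraries. Other cartilage genes are given with the fibril partners below. Of 8 markers of Schwann cells and melanocytes, Foxd3, Erbb3, Dct and Pmel rose, and the 8 together summed to 5.64 to 8.39 CPM in control against 115 to 227 CPM in Sox9-tg. The Schwann cell gene Pmp2 and the melanocyte genes Tyr and Mlana had at most 2 counts in any library and were not tested. Of 7 neuronal markers tested, edgeR called 3 lower (Rbfox3, Syt1 and Stmn2), and 4 were not called. Of 7 astrocyte markers tested, 2 were called lower (Aqp4 and Slc1a2), Sox9 itself was called higher, and 4 were not called. Over all genes tested, 5.86% were called lower and 7.69% higher. The neuronal list summed to 1390 to 2412 CPM in control against 527 to 1273 CPM in Sox9-tg libraries. The part of these markers in the collagen result was not tested.

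Genes that work on or with these collagens were counted in lists drawn up by function, to be read against the 7.69% of all genes tested that were called higher and the 5.86% called lower. Among partners of the cartilage fibril, 7 of 12 tested were called by edgeR, each of them higher (median log2 fold change 2.83). DESeq2 called 9 higher and 1 lower, with a median of 1.42, but was run on all genes and so also on partners with too few counts for edgeR. Acan was at 4.24 ± 1.63 CPM in control against 121 ± 57.1 CPM in Sox9-tg (log2 fold change 4.82 ± 0.42 SE, adjusted p = 0.000323). Matn4, a matrilin that links matrix fibres, was at 46.5 ± 12.9 and 1036 ± 260 CPM (log2 fold change 4.48 ± 0.31 SE, adjusted p = 0.000154). Both kept their call under all 15 alternatives. Cnmd, the cartilage anti-angiogenic protein chondromodulin, was at 1.07 ± 0.791 and 72.9 ± 54.8 CPM (log2 fold change 6.02 ± 0.76 SE, adjusted p = 0.00158), and its log2 fold change was 6.86 without control 2 and 5.39 without Sox9-tg 2.

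The other partners called were less firm. Matn1, a cartilage matrilin, was at 0.432 ± 0.396 and 15.04 ± 14.4 CPM (adjusted p = 0.0140, and 0.0923 by limma-voom). Hapln1, the link protein that ties aggrecan to hyaluronan, was at 16.3 ± 8.49 and 110 ± 86.0 CPM (adjusted p = 0.0186), and its adjusted p was 0.0599 without control 1 and 0.0770 without control 3. Chad, a leucine-rich cartilage protein that binds collagen, was at 0.315 ± 0.0960 and 2.45 ± 1.93 CPM (adjusted p = 0.0171), and 0.0648 and 0.0605 without the same libraries. The call of Lum (adjusted p = 0.0150) was lost without control 3, at 0.0690. Without control 3, 4 partners were called.

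Of 22 genes tested that fold, modify and secrete collagen, edgeR called 4, each of them higher (median log2 fold change 0.42). DESeq2 called 6 higher and 1 lower, and limma-voom 4 higher and 1 lower. Plod1, a lysyl hydroxylase of collagen chains, was at 62.8 ± 20.03 and 192 ± 21.0 CPM (log2 fold change 1.61 ± 0.21 SE, adjusted p = 0.00180). Plod2, another lysyl hydroxylase, was at 34.1 ± 4.64 and 70.7 ± 18.4 CPM (adjusted p = 0.0110, and 0.0535 without control 3). P4ha1, a catalytic subunit of prolyl 4-hydroxylase, and Crtap, part of the prolyl 3-hydroxylation complex, were called with log2 fold changes of 0.97 and 1.05, and each lost its call in 5 of the 15 alternatives. Serpinh1, the collagen chaperone HSP47, was at 127 ± 39.6 and 123 ± 31.5 CPM (adjusted p = 0.948). The count of calls ran from 1 without control 3 to 13 without Sox9-tg 1.

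Among genes that trim and crosslink collagen, 2 of 13 tested rose and 2 fell, against the 7.69% and 5.86% over all genes. Loxl3, a lysyl oxidase that crosslinks cartilage collagens, was at 15.2 ± 4.62 and 62.4 ± 15.6 CPM (log2 fold change 2.03 ± 0.26 SE, adjusted p = 0.00162). Loxl1, a lysyl oxidase known for its part in elastic fibres, was at 26.7 ± 2.07 and 7.90 ± 1.83 CPM (log2 fold change -1.76 ± 0.19 SE, adjusted p = 0.000933). The 2 lysyl oxidases therefore changed in opposite directions. Adamts3, which cleaves the amino-terminal propeptide of type II procollagen, was higher by 0.44 in log2 (adjusted p = 0.0404) and its relative Adamts2 was lower, by -1.40 (adjusted p = 0.0294). Adamts3 lost its call in 10 and Adamts2 in 6 of the 15 alternatives.

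Of 9 collagen receptors tested, 3 were called lower and 0 higher by edgeR, against 5.86% and 7.69% of all genes, with the same counts by DESeq2 and limma-voom. Without Sox9-tg 4 none of the 3 was called, and without control 2 or Sox9-tg 1 another receptor was called higher. Itgb1, the shared beta chain of collagen-binding integrins, was at 286 ± 14.8 and 364 ± 55.8 CPM (adjusted p = 0.175). Ddr1, the discoidin domain receptor kinase, was at 400.3 ± 11.96 and 289 ± 28.7 CPM (log2 fold change -0.47, adjusted p = 0.0374, lost in 8 alternatives). Ddr2, which binds fibrillar collagens including type II, was at 12.9 ± 2.01 and 6.87 ± 1.18 CPM (log2 fold change -0.91, adjusted p = 0.0182, lost in 4), and Mrc2, an endocytic receptor for collagen, was at 21.6 ± 3.02 and 13.9 ± 1.15 CPM (log2 fold change -0.63, adjusted p = 0.0194, lost in 3). The list's median of -0.14 was 0.29 without control 2 and 0.09 without Sox9-tg 4. Of 8 proteases and inhibitors tested, Timp2, an inhibitor of matrix metalloproteinases, was called higher (0.68, adjusted p = 0.0276) and Mmp14, a membrane collagenase, lower (-0.41, adjusted p = 0.0444), and these calls were lost in 5 and 9 alternatives. Mmp2, a gelatinase, was at 6.66 ± 0.663 and 11.2 ± 2.70 CPM (adjusted p = 0.0585), and Timp3, another inhibitor, at 94.1 ± 25.4 and 126 ± 17.3 CPM (adjusted p = 0.198). The cartilage collagenase Mmp13 had at most 4 counts in any library.

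Of 14 regulators tested, 6 were called higher and 1 lower, and without control 3 these counts were 3 and 0. Sox5 and Sox6, the usual partners of SOX9 at cartilage genes, were at 88.8 ± 7.49 and 158 ± 37.4 CPM and at 119 ± 8.41 and 423 ± 80.5 CPM. Sox6 rose by 1.83 in log2 (adjusted p = 0.000457) and Sox5 by 0.83 (adjusted p = 0.0164, and 0.0707 without control 3). Sox10, a close relative of Sox9 that oligodendroglia need to mature and also one of the NG2 glia markers above, rose by 2.43 (adjusted p = 0.00122), and Wwp2, a ubiquitin ligase that works with SOX9 in cartilage, by 2.33 (adjusted p = 0.00190). Barx2 and Arid5b, transcription regulators with roles in chondrogenesis, were called with log2 fold changes of 2.06 and 0.86, and Zeb1, a repressor, with -0.60, and these calls were lost in 6, 5 and 5 of the 15 alternatives.

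Of 13 other fibrillar and fibril-associated collagens tested, 5 were called higher and 1 lower (median log2 fold change -0.32). The higher count was 3 without control 1, without control 3 or without both libraries numbered 2. The lower count was 0 in 8 of the 15 alternatives and 3 by DESeq2. Col16a1, a fibril-associated collagen of cartilage and skin, was at 34.6 ± 17.2 and 126 ± 32.8 CPM (log2 fold change 1.86 ± 0.34 SE, adjusted p = 0.00873). Col20a1, of the same class, was at 0.952 ± 0.560 and 8.96 ± 5.68 CPM (log2 fold change 3.20 ± 0.58 SE, adjusted p = 0.00781). Col5a1, whose chain is closely related to those of type XI, was at 11.2 ± 2.05 and 20.7 ± 2.61 CPM (adjusted p = 0.0109). Col14a1, a fibril-associated collagen, was at 0.488 ± 0.256 and 2.05 ± 0.427 CPM (log2 fold change 2.02, adjusted p = 0.0175), and Col5a3 at 12.9 ± 5.33 and 33.2 ± 11.02 CPM (log2 fold change 1.35, adjusted p = 0.0340), and their calls were lost in 2 and 6 alternatives. Col5a2, a partner chain of Col5a1, was at 30.0 ± 1.10 and 21.7 ± 2.90 CPM (adjusted p = 0.0479, lost in 10 alternatives).

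Neighbours on the chromosome were also examined. Of the 14 nearest tested protein-coding genes, 1 on each side of each chain, 13 were not called in either direction. Over all genes tested, 7.69% were called higher and 5.86% lower, so most genes anywhere were not called. Without Sox9-tg 1, where more genes passed over the whole table (3169 against 2251), Tmem106c beside Col2a1 and both neighbours of Col9a2, Smap2 and Zmpste24, were called higher, with log2 fold changes of 0.38, 0.45 and 0.48. Rxrb, 1038 bp from Col11a2, was at 110 CPM in control against 122 CPM in Sox9-tg libraries (adjusted p = 0.521). Col19a1, itself a collagen gene 9206 bp from Col9a1, was at 2.49 and 2.13 CPM (adjusted p = 0.839). Olfm3, 683360 bp from Col11a1, was called higher (log2 fold change 1.64, adjusted p = 0.0252), and this call was lost in 5 alternatives. Mir455, a miRNA gene within Col27a1, had 0 or 1 counts per library.

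The genes whose values over the 7 libraries lay nearest to Col2a1 were sought among 11194 genes, by the root mean square difference of log2 levels centred on the control mean. Acan was the nearest (0.232), followed by Erbb3, a neuregulin receptor of glia (0.261), and then Col9a1 itself (0.265). Susd5 (0.344), Slpi, a secreted protease inhibitor (0.462), and Gjc3, a glial connexin (0.498), came next. Col11a2 was at rank 10, Col9a2 at 28, Col9a3 at 47, Col11a1 at 94 and Col27a1 at 108. Measured from Col27a1, the nearest were Nfatc2, a calcium-regulated transcription factor (0.0494), Cobll1 (0.157), Sytl2 (0.206), Stard13 (0.252) and Lama4, a laminin chain (0.276). The nearest chain to Col27a1 was Col11a1, at rank 87, and Col2a1 was at rank 3795. Because the values include the group difference, this measure mostly ranks genes by a like fold change.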

How the data were processed

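RNA sequencing libraries of 3 control and 4 Sox9-tg samples were grouped by genotype and numbered by title. The authors deposited whole-number read counts per gene. Tools named per the submitters' processing notes are STAR 2.5.2b, Trimmomatic 0.36, Subread 1.5.2 with featureCounts, DESeq and DESeq2, and the build is GRCm38. Tool roles, annotation release, and strand and multi-mapping settings were not given in the sources used here.

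Of 49315 genes, 16616 passed edgeR's filterByExpr (minimum count 10, total 15). Blank gene names occurred on 174 rows, which carry gene IDs and stayed in the fit. Libraries were scaled by TMM (0.965 to 1.05), and group was tested with edgeR 4.0.16 (R 4.3.3) by a two-sided quasi-likelihood test, with Benjamini-Hochberg adjustment over all genes tested. A count of 3 corresponds to 0.0970 to 0.193 CPM. Counts were also simulated over 16616 genes, with only a small set of genes above a minimum mean count changed, and with no outlying library. There the test found 95.3% of 4-fold, 46.4% of 2-fold and 4.48% of 1.5-fold changes, with 1.03% of calls false. These rates are for that setting and need not hold for the real counts, where 2251 genes were called. The SE of a log2 fold change is its size over the square root of F.

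Lengths and coordinates are from GENCODE M21 (GRCm38), promoters from RefSeq (GRCm38.p6), in which 5 of the 7 chains matched. Chain ratios used counts plus 0.5 per kilobase of exon. Named genes are the 7 chains, Sox9, members with the smallest p (up to 4) of each list, and the 5 genes nearest to Col2a1 and to Col27a1. Other list members, neighbours and genes at or near 0 were named after their values were seen. The members and lists were chosen with earlier results of these data known. 1 item of a marker list is not reported here. Alternatives were limma-voom (limma 3.58.1), DESeq2 1.42.0, other scalings, no filter, a replicate block, each library left out, both libraries numbered 2 left out, a pseudocount of 5 for ratios, and Pdgfra as the only marker.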

Additional observations from a re-analysis of the deposited data

Results flagged for a closer look

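Within the 4 Sox9-tg libraries, 1 library stood apart from the other 3 for 5 of 23 sets of values examined, by a gap of more than 0.829 of the whole range. Chance alone gives this in about 1 in 20 groups, and the sets share libraries and chains. Col2a1 was at 1193 CPM in Sox9-tg 2 against 597 to 632 CPM in the other 3. Col27a1 was at 125 CPM in Sox9-tg 2 against 56.8 to 64.7 CPM. The Col9a2 to Col9a3 log2 ratio was -0.79 in Sox9-tg 2 against -1.82 to -1.68. Sox9-tg 1 stood apart in the Col2a1 to Col11a2 log2 ratio, 1.43 against 0.52 to 0.65, and in the Col2a1 to Col9a1 log2 ratio, 1.45 against 0.70 to 0.81.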

How the results depend on the processing

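All 7 chains kept their direction and their call under each of the 15 alternatives. The count of genes called over the whole table, 2251 in all, ran from 965 (without control 3) to 3169 (without Sox9-tg 1) as single libraries were left out, with 575 to 1785 higher and 390 to 1384 lower. With the replicate block 3109 genes were called, 1509 of them lower. The deviations of same-numbered libraries correlated at 0.299, 0.597 and 0.0548. Controls 1 and 2 correlated best with the Sox9-tg library of their own number, and control 3 with Sox9-tg 1 (0.134). Whether equal numbers mark pairs was not tested. All 7 chains were called with the block. With it 5 microglial, 3 endothelial and 2 pericyte markers were called lower, against 0 of each without it.

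Of the chain ratios that reached the smallest p, log2 differences with single libraries left out were 0.96 to 1.14 for Col9a1 to Col9a2, 1.35 to 1.57 for Col9a1 to Col9a3, -2.38 to -1.47 for Col11a1 to Col11a2, 2.30 to 2.60 for Col2a1 to Col11a1 and 2.11 to 2.78 for Col2a1 to Col27a1. The smallest exact permutation p is then 0.0667 or 0.05, so none can pass after adjustment. Without both libraries numbered 2 these differences were 1.12, 1.40, -2.31, 2.61 and 2.14 (smallest p 0.1), and with the pairing of the replicate block 1.01, 1.52, -2.01, 2.48 and 2.44 (p = 0.25, the smallest of an exact test). The Col2a1 to Col9a1 difference, 0.05 with all libraries, was -0.12 to 0.18 with single libraries left out and negative without control 3 (-0.04) or Sox9-tg 1. Relative to Pdgfra alone, differences were 3.26 for Col2a1, 3.21 for Col9a1, 1.73 for Col9a3, 0.84 for Col11a1 and 0.80 for Col27a1.

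The other values that changed sign belonged to genes not called. The Pth1r log2 fold change was 0.036 by limma-voom, 0.0057 with no filter, 0.46 without both libraries numbered 2, and -0.19 to 0.40 with single libraries left out. The Orm2 log2 fold change was -0.0032 by limma-voom and -0.62 to 0.70 with single libraries left out. The corresponding ranges were -0.29 to 0.062 for the Dido1 log2 fold change, -0.47 to 0.077 for Zfp618, -1.94 to 0.40 for Rgs5, -3.34 to 0.50 for Cldn5, -2.12 to 0.38 for Esam and -0.72 to 0.076 for Col19a1, which was at 0.31 without both libraries numbered 2. The receptor list's median ran from -0.34 to 0.29 and was 0.11 without both libraries numbered 2. The cause was not tested.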
